A study of Mus musculus with 2 samples.

Results

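Long noncoding RNA genes detected in both libraries of mouse granulocyte-monocyte progenitors (GMP) numbered 141 of 43346 annotated genes in the files. A gene was taken if GENCODE M21 gave it 1 of 6 long noncoding types (lincRNA, antisense, processed_transcript, sense_intronic, sense_overlapping or bidirectional_promoter_lncRNA). It also had to reach at least 1 TPM and at least 50 expected counts in each library. TPM is a level per transcript length, scaled to the same total in each library, and an expected count is the number of reads that an estimator assigned to a gene. The genes were thus selected on their measured TPM and counts, so their levels are given as a description and no test was made on them. Of 5690 genes of the 6 types in the files, 4473 had 0 counts in both libraries and 722 had counts above 0 in both. The 141 genes were 53 of 2777 lincRNAs (1.91%), 46 of 595 processed transcripts (7.73%) and 34 of 2062 antisense genes (1.65%). The rest were 5 of 90 bidirectional promoter genes (5.56%) and 3 of 146 sense intronic genes (2.05%), with 0 of the 20 sense overlapping genes.

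GMP are bone marrow progenitors that give rise to neutrophils and monocytes. Male C57BL/6J mice, 5 to 6 weeks old, gave the primary cells for 1 group of 2 biological replicates, with no treatment, mutant or control. Each library was made from 100 ng of total RNA depleted of ribosomal RNA, and the labels tie both libraries to a single donor record without saying how many animals it stands for. The spread between the libraries may therefore be partly technical, and with 2 libraries of 1 group no p-value is given. Where a gene has a pair of values without further label, the first is replicate 1 and the second replicate 2. In such bulk RNA, a gene used in few cells and a gene used weakly in all cells cannot be told apart.

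Replicate 1 held 49473848 expected counts and replicate 2 held 44260902. Nuclear protein-coding genes made up 19.1% (replicate 1) and 22.8% (replicate 2) of all TPM. Hence 1 deposited TPM equals 5.24 and 4.38 TPM when those protein-coding genes alone are the total. Protein-coding genes passing the same thresholds lay a median of 0.26 log2 units higher in replicate 2 by TPM and 0.00 by scaled counts. For the 141 genes these medians were 0.42 and 0.11. By TPM 116 of the 141 were higher in replicate 2, and by scaled counts 77. TPM values are read against these shifts. The labels give a size range of 200 to 712 for replicate 1 and 200 to 1000 for replicate 2. Its part in the shifts was not tested. All 12 GMP markers used to check the label, among them Mpo, Elane, Kit and Cd34, were at 1 TPM or more in both libraries, summing to 4977 TPM (replicate 1) and 4643 TPM (replicate 2). The 4 B cell markers summed to at most 0.02 TPM and the 5 T and NK cell markers to at most 0.28 TPM. The 7 stem, erythroid and megakaryocyte markers summed to 1.80 and 2.30 TPM, and Ly6a was at 0 in both. Of the 4 mature neutrophil markers 3 reached 1 TPM in both libraries, with sums of 12.8 and 17.7 TPM. The 3 macrophage markers summed to 2.57 and 2.17 TPM, and 1 of the 3 reached 1 TPM in both libraries. The 4 stroma and endothelium markers summed to 9.16 and 10.9 TPM, with 1 of the 4 at 1 TPM or more in both libraries and Col1a1 and Cdh5 at 0. The part of RNA from other cells in the results below was not tested.

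Long noncoding RNAs are transcripts that are not read as proteins. Some act in the nucleus, where they hold up nuclear bodies or silence genes from which they are transcribed, some act in the cytoplasm, and some are the leftover of a precursor whose introns or exons give small nucleolar RNAs (snoRNAs) or microRNAs (miRNAs). Many start beside, or run across, a protein-coding gene on the opposite strand. In myeloid progenitors the class is known for the precursor of miR-223 and for Morrbid, an RNA that sets the lifespan of mature myeloid cells.

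The 141 genes together took 0.465% of all TPM (replicate 1) and 0.581% (replicate 2), which was 93.6% and 93.3% of the TPM of all genes of the 6 types. Their median level was 2.98 TPM (replicate 1) and 4.03 TPM (replicate 2), against 6.49 and 7.76 TPM for the 8769 protein-coding genes passing the same thresholds. On log2(TPM + 1) their median was lower by 0.91 in replicate 1 and by 0.80 in replicate 2, a difference of -0.86 ± 0.08 (SD, n = 2). At least 10 TPM in both libraries was reached by 27 of the 141 long noncoding RNA genes (19.1%) and by 3077 protein-coding genes (35.1%). At least 100 TPM was reached by 7 of the 141 genes (4.96%) and by 274 protein-coding genes (3.12%), the other order, and 4 of those 7 genes carry evidence against a long noncoding RNA, given further on. The order of levels was similar between the libraries, with a Spearman correlation of 0.91 across the 141 genes, which is a description over genes of the same 2 libraries. The 10 genes of highest mean TPM were in the 10 highest of each library, and held 84.9% (replicate 1) and 84.1% (replicate 2) of the summed TPM of the 141 genes.

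**Figure D1:**
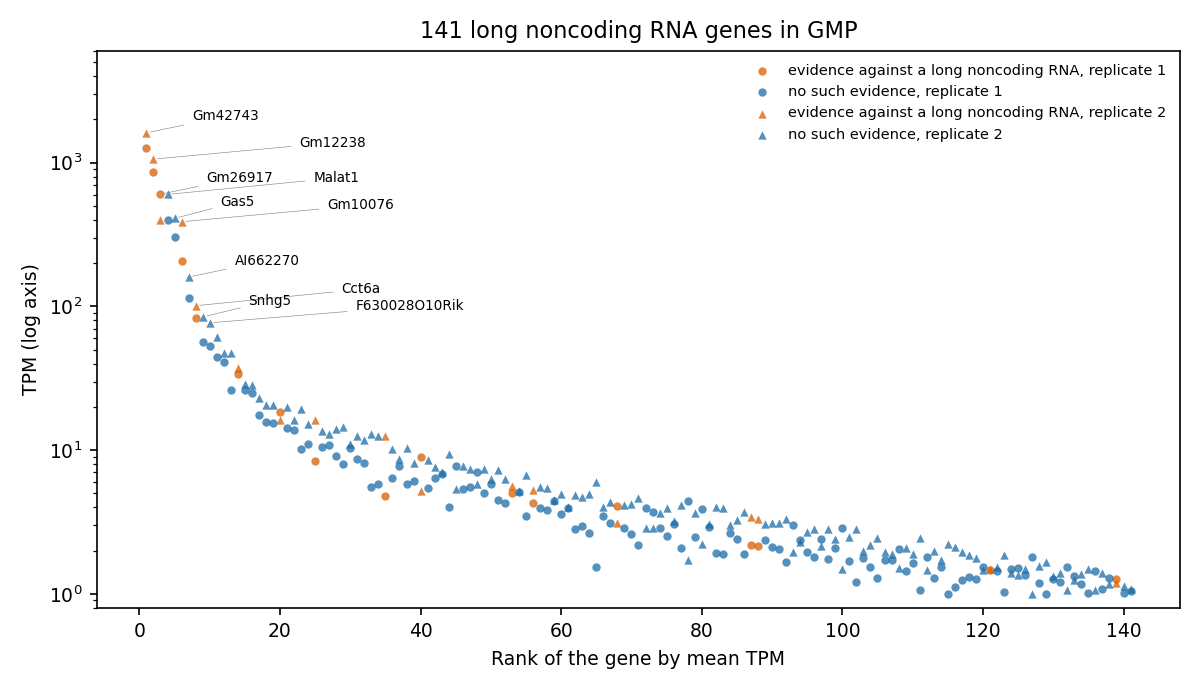
TPM of each of the 141 genes in replicate 1 (circles) and replicate 2 (triangles), on a log axis, in order of mean TPM, with the 10 highest named. Orange marks the 17 genes with evidence against a long noncoding RNA and blue the other 124. The level drops steeply over the first 10 genes, and 5 of those 10 are orange.

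Several of the most abundant genes carried evidence against their annotated type. Each gene was checked against RefSeq, against the M21 place of its transcripts and against protein-coding transcripts by sequence. RefSeq matched 112 of the 141 genes and gave 99 of them the type lncRNA, 9 protein_coding, 3 pseudogene (1 of them transcribed) and 1 snoRNA. At least 50% of the leading transcript matched a protein-coding transcript on the same strand at 95% identity or more in 5 genes, and 2 genes lay at the ribosomal RNA repeat of chromosome 17. In all, 17 genes carried such evidence, by criteria chosen after their values were seen. These 17 genes held 67.0% (replicate 1) and 63.1% (replicate 2) of the TPM of the 141 genes, and 47.1% and 32.2% of their counts. They included 5 of the 10 highest.

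Gm42743 was the highest, with 1265 TPM and 41308 counts (replicate 1) and 1611 TPM and 33769 counts (replicate 2). A transcript of 381 bases held 98.0% (replicate 1) and 98.4% (replicate 2) of its TPM. M21, on build mm10 like all coordinates here but those of RefSeq (GRCm38.p6, the same assembly), places that transcript at chr3:96269752-96270132 on the plus strand in the protein-coding gene Hist2h2bb, which encodes a histone H2B of nucleosomes. Both ends of the transcript are shown, 150 bases each, because an open reading frame of 126 codons fills it from the first base to the last. The start codon and the stop codon are in capitals.
Gm42743 first 150 bases: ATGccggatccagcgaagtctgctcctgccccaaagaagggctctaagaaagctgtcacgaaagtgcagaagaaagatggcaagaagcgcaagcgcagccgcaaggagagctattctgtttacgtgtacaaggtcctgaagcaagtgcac
Gm42743 last 150 bases: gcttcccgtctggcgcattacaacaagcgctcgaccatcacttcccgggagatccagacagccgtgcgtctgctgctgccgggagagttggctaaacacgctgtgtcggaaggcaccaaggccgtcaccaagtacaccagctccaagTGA
The value listed under Gm42743 is thus that of a transcript which M21 gives to a histone coding gene. Gm42743 was 1 of 4 of the genes in a cluster of Hist2 histone genes on chromosome 3, together with Gm20628, Gm20632 and Gm20634. Gm20634 had 4.08 and 3.13 TPM, and at least 50% of its leading transcript matched Hist2h3c1, a histone H3 gene. Some histone genes of this cluster are near-identical copies, so the levels of single copies are uncertain. Hist2h2aa2, opposite Gm20632, was listed with 50371 counts in replicate 1 and 70.4 in replicate 2.

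Gm12238 was the second highest by TPM, with 863 TPM (replicate 1) and 1058 TPM (replicate 2). These levels rested on only 437 and 192 counts, because the effective length by which counts are divided was 3.51 bases in replicate 1 and 1.63 bases in replicate 2. By counts it was lower in replicate 2 than in replicate 1, with a log2 ratio of -1.06, while by TPM it was higher. RefSeq types Gm12238 as a snoRNA. It lies at chr11:55482706-55482829 on the plus strand and is 124 bases long, and an ACA, in capitals, stands 3 bases before its end, as it does in snoRNAs of the H/ACA class that guide pseudouridylation.
Gm12238: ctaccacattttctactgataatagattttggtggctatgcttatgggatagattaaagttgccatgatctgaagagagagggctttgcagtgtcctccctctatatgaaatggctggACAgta
A level that rests on an effective length of a few bases is not comparable with the levels of the longer transcripts.

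Gm10076 had 206 TPM (replicate 1) and 388 TPM (replicate 2), with 6154 and 7476 counts, which were not whole numbers. RefSeq types it as a pseudogene, and its single exon at chr14:105681828-105682211 held the reading frame of Rpl41, which encodes a protein of the large ribosomal subunit, without a difference over 78 bases. The stretch is shown, with the start and stop codon in capitals, because reads from it have the same letters in both genes.
Gm10076 and Rpl41 stretch: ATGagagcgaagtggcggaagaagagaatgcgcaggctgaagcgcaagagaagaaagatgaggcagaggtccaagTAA
The level of Gm10076 is therefore uncertain. Gm26917, at chr17:39843013-39846341, had 603 TPM and 273785 counts (replicate 1) and 399 TPM and 138782 counts (replicate 2). It ended 13 bases before the 18S ribosomal RNA copy Rn18s-rs5 of RefSeq, had a GC content of 69.1%, the highest of the 141 genes, and held 36.3% of their counts in replicate 1 and 21.3% in replicate 2. Gm42418, which RefSeq names Rn18s-rs5, had 34.0 and 37.2 TPM. Both libraries were depleted of ribosomal RNA, and the part of that step in these levels was not tested.

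The 9 genes that RefSeq calls protein-coding were led by Cct6a, a subunit of the cytosolic chaperonin, at 83.6 TPM (replicate 1) and 101 TPM (replicate 2). 2310009A05Rik, which RefSeq names Pigbos1, was at 18.6 and 16.2 TPM. Gm12940, which RefSeq places in the splicing factor gene Sfpq, was at 8.35 and 16.3 TPM. Ptpmt1, a mitochondrial phosphatase gene, was at 4.79 and 12.6 TPM, and Ifi30, a lysosomal thiol reductase gene, at 8.91 and 5.17 TPM. The other 4 (Tmem134, Tmem250-ps, Gm6712 and 1810058I24Rik) lay between 1.47 and 5.60 TPM.

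The remaining 124 genes had a median of 2.84 TPM (replicate 1) and 3.84 TPM (replicate 2), and were led by Malat1 and Gas5. Malat1, an RNA of nuclear speckles, had 398 TPM and 184012 counts (replicate 1) and 601 TPM and 218480 counts (replicate 2). It alone held 25.9% (replicate 1) and 28.0% (replicate 2) of the TPM of the 124 genes. Its transcript of 6983 bases took 93.3% of its counts in replicate 1 and 93.9% in replicate 2. By TPM, which divides by length, that transcript was only 44.0% and 45.1% of the gene, and a transcript of 556 bases led in replicate 1 with 53.0%.

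Gas5, a host of snoRNAs whose spliced RNA is stabilised when cells stop growing, was at 305 TPM (replicate 1) and 409 TPM (replicate 2), or 19.9% and 19.1% of the TPM of the 124 genes. Its leading transcript of 502 bases was 31.9% (replicate 1) and 36.5% (replicate 2) of the gene's TPM, the rest being spread over many splice forms. AI662270, on chromosome 11, followed at 114 and 160 TPM. After it came the snoRNA host Snhg5 at 57.0 and 84.3 TPM and F630028O10Rik, which contains the miR-223 gene, at 53.1 and 76.8 TPM. The 10 highest of the 124 genes held 71.0% (replicate 1) and 72.0% (replicate 2) of their TPM, against 84.9% and 84.1% for the 10 highest of all 141.

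Of 7 RNAs of nuclear architecture 4 were among the 141 genes. Beside Malat1 these were Tug1, an RNA with roles in chromatin regulation, at 15.8 and 20.6 TPM, and Neat1, which builds paraspeckles, at 8.03 TPM (replicate 1) and 14.6 TPM (replicate 2). Neat1 has a short and a long form, and only the long form can build a paraspeckle. The long transcript of 20771 bases took 71.1% of its counts in replicate 1 and 74.4% in replicate 2, and 25.3% and 28.2% of its TPM. The short transcript of 3004 bases held the rest of the TPM, at 6.00 and 10.4 TPM. Neat1 was higher in replicate 2, with a log2 count ratio of 0.70.

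Kcnq1ot1, the paternally expressed RNA that silences the Kcnq1 domain, was the fourth of these, with the longest of the 141 transcripts at 84395 bases. It had 1.54 TPM (replicate 1) and 2.20 TPM (replicate 2) from 18681 and 20744 counts, which were 2.47% and 3.19% of all counts of the 141 genes but 0.0331% and 0.0378% of their TPM. It was the only 1 of 8 imprinted RNAs in the files to pass, and 5 of the 8 (Meg3, Rian, Mirg, H19 and Airn) had 0 counts in both libraries. Of the remaining nuclear RNAs, Miat and Xist had 0 counts in both. Firre fell outside the rule with 0.42 TPM (replicate 1) and 3.11 TPM (replicate 2). For dosage compensation, Ftx, a positive regulator of Xist that also hosts miRNAs, passed at 2.81 and 4.91 TPM, while Jpx was at 0.28 and 0.19 TPM and Tsix at 0.01 TPM or less.

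Of 10 RNAs known from blood and immune cells only Morrbid, named Gm14005 in M21, passed. It had 5.52 TPM and 271 counts (replicate 1) and 12.9 TPM and 387 counts (replicate 2). Mirt1 just missed with 0.80 and 1.11 TPM. Lncpint, Hotairm1 and Ptgs2os2 had counts in 1 library only, and 5 of the 10 had 0 counts in both, Hotair and Trp53cor1 among them. Mirt2, also at 0 in both, has the M21 type misc_RNA and so could not pass. A count of 0 still allows 3 counts, by counting error alone.

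Among the conserved RNAs of the cytoplasm or of cell growth, 4 of the 5 in the files passed. Norad, named 2900097C17Rik in M21, which binds Pumilio proteins, was at 26.0 and 28.7 TPM. Oip5os1 (1700020I14Rik) was at 10.9 and 15.2 TPM with 11022 and 11704 counts on 8300 bases. Chaserr (1810026B05Rik), which lies upstream of the chromatin remodeller gene Chd2 and restrains it, was at 10.5 and 13.6 TPM. Epb41l4aos was at 5.81 and 12.6 TPM. Terc, the telomerase RNA, was at 9.56 and 10.2 TPM but has the M21 type misc_RNA, outside the rule. The files give the Norad transcript 1149 bases and M21 gives it 4915. Leading transcripts of 9 of the 141 genes differ in length between the files and M21 in this way, and their TPM refers to the length in the files.

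Small RNA genes lay within 28 of the 141 genes on the same strand (19.9%), against 98 of the other 5549 long noncoding RNA genes in the files (1.77%), a difference in shares that was not tested. They were snoRNA or scaRNA genes in 19 and miRNA genes in 11, with 2 genes holding both kinds. The 28 hosts had a median of 7.78 TPM (replicate 1) and 11.4 TPM (replicate 2), and the other 113 genes 2.40 and 3.24 TPM. On log2(TPM + 1) the hosts were higher by 1.37 in replicate 1 and by 1.54 in replicate 2. The mean was 1.46 ± 0.12 (SD, n = 2). That SD is between the 2 libraries and not over genes, and the difference was not tested. With hosts of snoRNA or scaRNA alone set against all others the difference was 2.17, and with hosts whose exons contain the small RNA left out it was 2.04.

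**Figure D2:**
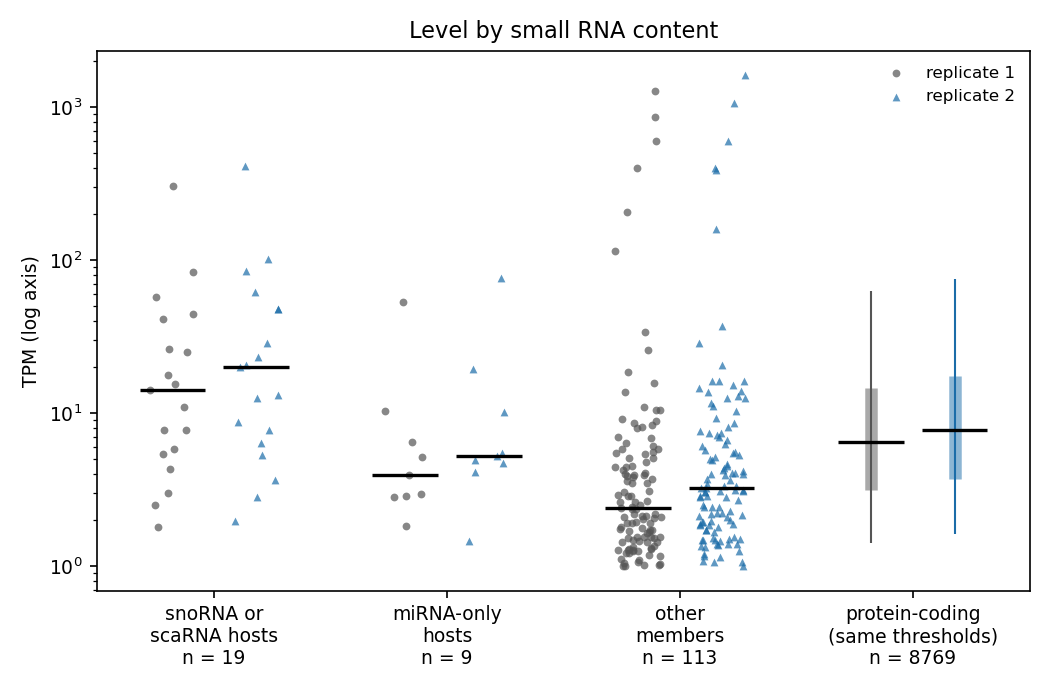
TPM on a log axis in replicate 1 (grey circles) and replicate 2 (blue triangles), for the 19 snoRNA or scaRNA hosts, the 9 genes that host only miRNAs, the 113 other genes and the 8769 protein-coding genes under the same thresholds. Black lines are medians, and for protein-coding genes thick bars span the quartiles and thin lines the 5th to 95th percentile. The snoRNA hosts have the highest median, 14.2 TPM (replicate 1) and 20.1 TPM (replicate 2).

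snoRNAs guide the chemical modification of ribosomal and spliceosomal RNA, and are cut from introns of their hosts, many of which are noncoding. Hosts of snoRNA or scaRNA had a median of 14.2 TPM (replicate 1) and 20.1 TPM (replicate 2). Below Gas5, Cct6a and Snhg5 stood 2410006H16Rik at 44.3 and 61.7 TPM, 1110038B12Rik at 41.1 and 47.6 TPM and Snhg3 at 26.1 and 47.7 TPM. Snhg12 was at 25.1 and 28.6 TPM, 9330159M07Rik at 17.7 and 23.1 TPM, Zfas1 at 15.5 and 20.5 TPM and Snhg15 at 14.2 and 20.1 TPM. These hosts kept nearly the same order in both libraries. They were named as the highest hosts, so that all lay above the median of the protein-coding genes follows from the choice. Among lower hosts, Snhg20, AA465934 and Gm29170 were below that median in both libraries. Snhg6 was at 10.9 and 13.0 TPM, Snhg17 at 7.78 and 5.33 TPM and Snhg20 at 5.38 and 7.71 TPM. By scaled counts all 3 were lower in replicate 2, with log2 ratios of -0.34, -0.64 and -0.20, though the counting interval of Snhg20 included 0. Of the 14 genes in the files with a snoRNA host name in M21 (Gas5, Zfas1 and the Snhg genes) 9 were among the 141. A further one, 1810032O08Rik, which RefSeq names Snhg16, was at 4.32 and 6.34 TPM. Snhg9 reached 6.02 and 4.14 TPM but on 23 and 7 counts, below the minimum. Snhg11 has the M21 type protein_coding and so could not pass. Snhg3 shares exon bases with Rcc1 on the same strand, so its level is uncertain.

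The snoRNAs themselves could mostly not be read from these libraries. Of 59 hosted small RNA genes in the files 46 were listed at 0 TPM in both libraries, and 41 had an effective length of 0 in both, the longest of them 103 bases. The 12 above 0 in both were at least 129 bases long. The fragment length implied by the files was 178 bases in replicate 1 and 214 bases in replicate 2, longer than each of those 41 genes.

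RefSeq holds the sequence around the start of 86 of the 141 genes, from 250 bases before to 50 after it, in build GRCm38.p6. CpG dinucleotides, CG on either strand, were at 0.6 of the number expected from base composition or more in 63 of the 86 genes (73.3%). This held for 16 of the 16 matched snoRNA or scaRNA hosts and for 47 of the 70 genes that host neither (67.1%). Of all 32851 RefSeq promoters of that length 35.8% reached it. Those promoters were not selected by level, while the 141 genes were, so the shares are not of like sets. Of the genes paired with a divergent protein-coding start, described further on, 15 of the 16 matched reached that value. The window of Gas5, at chr1:161034351-161034650 on the plus strand, is shown because Gas5 was the most abundant host, with its 33 CG dinucleotides in capitals.
Gas5 start window: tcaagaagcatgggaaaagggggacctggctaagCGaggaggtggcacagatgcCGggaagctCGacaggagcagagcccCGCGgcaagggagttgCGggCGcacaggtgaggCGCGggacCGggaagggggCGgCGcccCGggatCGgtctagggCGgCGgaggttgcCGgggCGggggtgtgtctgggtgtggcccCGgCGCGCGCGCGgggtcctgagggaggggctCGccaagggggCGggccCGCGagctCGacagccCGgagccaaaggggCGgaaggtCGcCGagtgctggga
These letters describe the window and do not show a promoter at work.

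miRNAs pair with target RNAs through their seed, bases 2 to 8 from the 5′ end, and lower the target's output. The 9 genes that host miRNAs and no snoRNA had a median of 3.93 TPM (replicate 1) and 5.23 TPM (replicate 2). The mature arms of the better known of these miRNAs, from RefSeq, are shown because they are the products for which the host RNAs are known, with the seed in capitals. Mature sequences were matched for 21 of 22 hosted miRNA genes, and the 17 arms shown carry 11 different seeds.
miR-223-3p: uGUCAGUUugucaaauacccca
miR-17-5p: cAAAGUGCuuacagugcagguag
miR-20a-5p: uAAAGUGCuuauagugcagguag
miR-18a-5p: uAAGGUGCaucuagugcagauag
miR-19a-3p: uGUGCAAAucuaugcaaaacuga
miR-19b-3p: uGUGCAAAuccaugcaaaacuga
miR-92a-3p: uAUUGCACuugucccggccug
miR-15a-5p: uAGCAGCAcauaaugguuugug
miR-16-5p: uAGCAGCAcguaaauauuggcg
let-7a-5p: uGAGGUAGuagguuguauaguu
let-7d-5p: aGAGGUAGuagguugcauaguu
let-7f-5p: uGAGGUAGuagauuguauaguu
miR-181a-5p: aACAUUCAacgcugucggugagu
miR-181b-5p: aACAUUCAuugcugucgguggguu
miR-191-5p: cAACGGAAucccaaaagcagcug
miR-425-5p: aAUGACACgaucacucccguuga
miR-374b-5p: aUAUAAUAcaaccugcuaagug
F630028O10Rik, on chromosome X, is the source of miR-223, a miRNA of granulocytes, and was the highest of the miRNA hosts at 53.1 TPM (replicate 1) and 76.8 TPM (replicate 2). It had 22490 and 24754 counts. Dleu2, which holds miR-15a and miR-16 with a shared seed, was at 10.3 and 19.4 TPM.

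6720427I07Rik, which holds let-7a, let-7d and let-7f with a shared seed, was at 6.43 TPM (replicate 1) and 10.2 TPM (replicate 2). Mir17hg, the oncogenic host of the miR-17 to miR-92a cluster, was at 3.93 and 5.52 TPM. Its 6 miRNAs carry 4 seeds, shared between miR-17 and miR-20a and between miR-19a and miR-19b. 4833445I07Rik, around miR-191 and miR-425, was at 5.15 and 5.23 TPM, Ftx, around miR-374b, at 2.81 and 4.91 TPM, and Gm4258, around miR-181a and miR-181b, at 1.82 and 1.47 TPM. Of 13 names on the list of miRNA hosts 3 passed, and Mir142hg and 5 others had 0 counts in both libraries. Mature miRNAs were not measured in these libraries, so the level of a host is not that of its miRNA.

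A protein-coding gene started within 1000 bases, on the opposite strand and pointing away, for 30 of the 141 genes (21.3%), against 486 of the other 5549 long noncoding RNA genes in the files (8.76%), again without a test. The median distance was 110 bases, and 23 of the 30 pairs were at most 200 bases apart. The genes in these pairs had a median of 1.85 TPM (replicate 1) and 2.83 TPM (replicate 2), and their partners 4.89 and 6.70 TPM. The partner was higher in both libraries in 21 of the 30 pairs, the long noncoding RNA in 7, and the order differed between the libraries in 2. The 7 pairs include all 5 whose partner was below 1 TPM in both libraries. The levels within a pair went together little, with Spearman correlations of 0.05 in replicate 1 and 0.12 in replicate 2 over the 30 pairs, a description only.

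**Figure D3:**
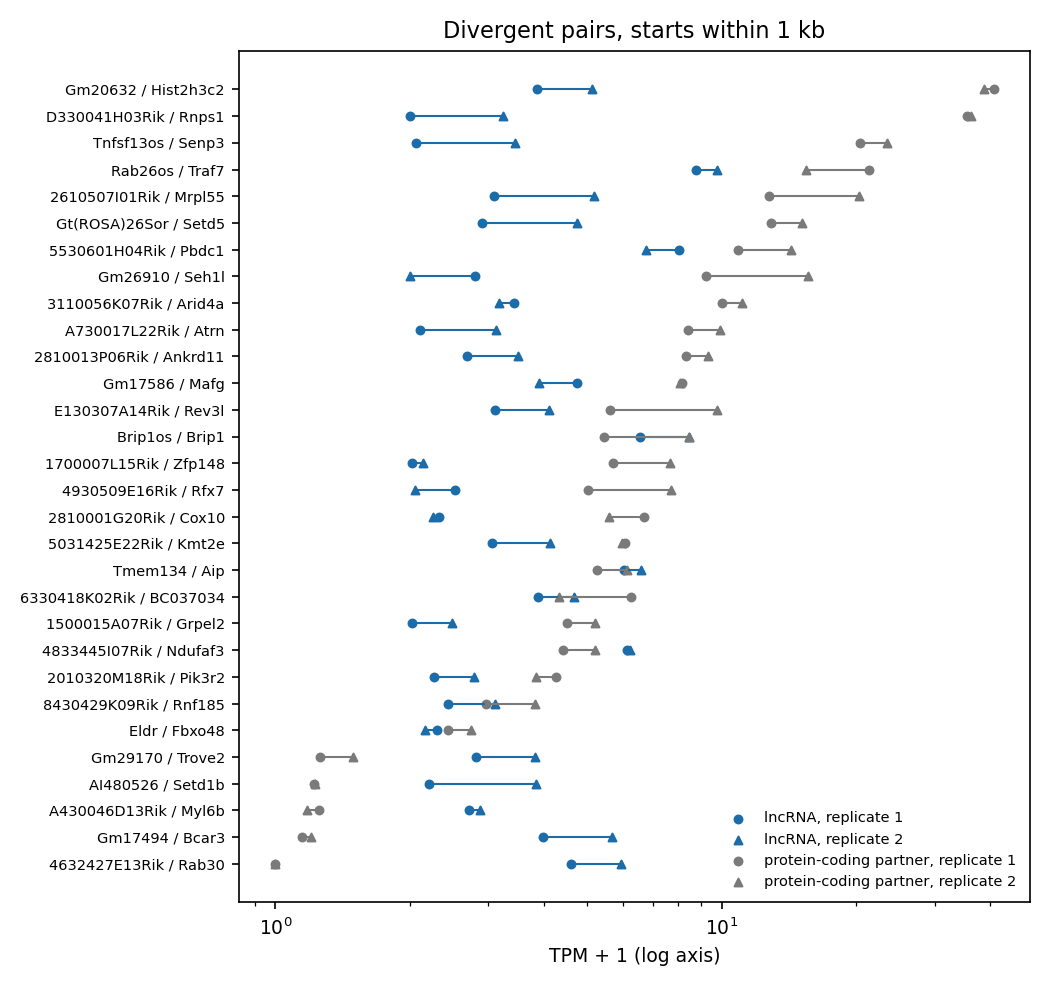
TPM + 1 on a log axis of the long noncoding RNA (blue) and of its protein-coding partner (grey) in the 30 pairs whose starts lie within 1000 bases on opposite strands, in order of the partner's level, with circles for replicate 1 and triangles for replicate 2. Partners range up to 39.7 TPM while the long noncoding RNAs stay below 10 TPM, and in the lowest 5 pairs the partner is below 1 TPM.

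D330041H03Rik started 23 bases from Rnps1, an exon junction factor gene, and had 1.00 TPM (replicate 1) and 2.24 TPM (replicate 2), against 34.5 and 35.2 TPM for Rnps1. Tnfsf13os had 1.07 and 2.44 TPM, against 19.4 and 22.5 TPM for Senp3, a SUMO protease gene. Rab26os, whose exon holds a snoRNA gene, had 7.78 and 8.74 TPM, against 20.3 and 14.4 TPM for Traf7, a TRAF family gene. Each partner was higher than its long noncoding RNA in both libraries, without overlap. Pairs here and in the next paragraph, except Brip1os and 4632427E13Rik, were picked for the highest partner TPM, which favours a higher partner.

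Gt(ROSA)26Sor, the locus used for transgenes that are to be active everywhere, started 32 bases from Setd5 and had 1.90 TPM (replicate 1) and 3.73 TPM (replicate 2), against 11.9 and 14.1 TPM for Setd5. 2610507I01Rik had 2.09 and 4.17 TPM, against 11.8 and 19.3 TPM for Mrpl55, a mitochondrial ribosome gene. 5530601H04Rik had 7.03 and 5.77 TPM, against 9.89 and 13.3 TPM for Pbdc1. In these 3 pairs, picked in the same way, the protein-coding gene was higher in both libraries. Gm26910 had 1.80 and 1.00 TPM, against 8.22 and 14.6 TPM for the nuclear pore gene Seh1l. 3110056K07Rik had 2.42 and 2.17 TPM, against 9.01 and 10.1 TPM for Arid4a, a chromatin factor gene. A730017L22Rik had 1.11 and 2.12 TPM, against 7.41 and 8.90 TPM for Atrn. Not all pairs were ordered so. Brip1os had 5.55 and 7.44 TPM and the DNA helicase gene Brip1 4.46 and 7.47 TPM, which overlapped. 4632427E13Rik had 3.59 and 4.95 TPM beside Rab30, which was listed at 0 in both libraries. Gm20632 had 2.86 and 4.13 TPM beside 39.7 and 37.8 TPM for Hist2h3c2, a histone gene with near-identical copies.

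The 30 partners were compared with protein-coding genes at large. Their median was 4.89 TPM (replicate 1) and 6.70 TPM (replicate 2), against 3.32 and 3.92 TPM for all protein-coding genes with a count. On log2(TPM + 1) partners were higher by 0.45 in replicate 1 and by 0.65 in replicate 2, or 0.55 ± 0.14 (SD, n = 2). Against protein-coding genes that passed the thresholds set on the long noncoding RNAs they were lower, by a difference of -0.27, so the direction depended on the genes they were set against.

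Exon bases were shared with a protein-coding gene on the other strand by 53 of the 141 genes, in 63 pairs. This share was not counted over the other long noncoding RNA genes in the files, so it cannot be called high or low. No source used here states whether counting used strand, so the level of an overlapped gene is uncertain. The counts of 47 of the 53 genes (88.7%) were whole numbers in both libraries, as were those of 117 of all 141 genes (83.0%). In the 36 pairs whose partner had at least 1000 counts in both libraries, the long noncoding RNA had a median of 9.75% of its partner's counts in replicate 1 and 14.7% in replicate 2. The range was 0.127% to 224% in replicate 1 and 0.133% to 279% in replicate 2.

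**Figure D4:**
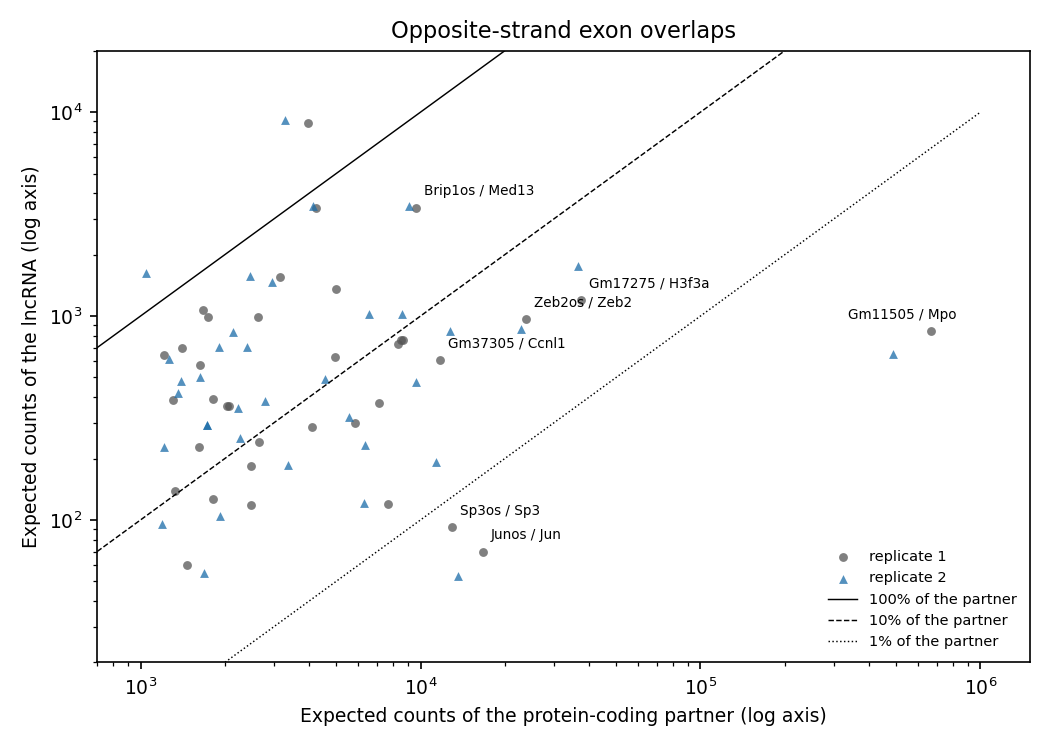
Expected counts of the long noncoding RNA against those of the protein-coding gene whose exons it overlaps on the opposite strand, both on log axes, for the 36 pairs whose partner had at least 1000 counts in both libraries. Circles are replicate 1, triangles replicate 2, and lines mark 100%, 10% and 1% of the partner. Gm11505 lies lowest against its partner, Mpo, and the unnamed pair at the top, Tug1 with Morc2a, lies above the line of 100% in both libraries.

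Of 31 myeloid genes on a list, 3 had an overlapping partner among the 141 genes. Gm11505, at chr11:87795784-87801144 on the minus strand, shares 512 exon bases with Mpo, the gene of myeloperoxidase. It had 10.4 TPM (replicate 1) and 11.1 TPM (replicate 2) from 842 and 648 counts, against 665507 and 487367 counts for Mpo. That was 0.127% and 0.133% of the Mpo counts, nearly the same share in both libraries. Zeb2os had 967 and 863 counts, against 23740 and 22841 counts for Zeb2, a zinc finger transcription factor gene, which was 4.07% and 3.78%. Junos had 70.0 and 53.0 counts, against 16676 and 13571 counts for Jun, an AP-1 subunit gene, which was 0.420% and 0.391%. Whether reads of the sense gene contribute to the antisense counts was not tested.

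Over the 36 pairs with a partner of at least 1000 counts, the share of the partner's counts differed by less than 1.5-fold between the libraries in 23, and the 3 pairs of myeloid genes are among these 23. The share moved more in Sp3os, Gm17275 and Rab10os, named for that reason. Sp3os had 92.0 counts in replicate 1 and 192 in replicate 2, against 12953 and 11377 counts for Sp3. Rab10os had 729 and 476 counts, against 8341 and 9648 counts for Rab10. Gm17275 had 1193 and 1751 counts, against 37285 and 36464 counts for H3f3a, a histone H3.3 gene. In these 3 examples the antisense RNA was a small fraction of its partner. Tug1, by contrast, exceeded Morc2a, with 8852 and 9188 counts against 3950 and 3289. As a share of the partner's counts, Sp3os was at 0.710% and 1.69%, Gm17275 at 3.20% and 4.80% and Rab10os at 8.74% and 4.93%, so the share was larger in replicate 2 for the first pair of genes and smaller for Rab10os.

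On scaled counts (log2 CPM, with TMM factors and a prior count of 2), the 141 genes differed between the libraries by a median of 0.26 log2 units in either direction, against 0.19 for the protein-coding genes passing the same thresholds. Genes with fewer counts spread more: the 31 of the 141 genes with a mean under 200 counts had a median of 0.41, against 0.40 for the 109 such protein-coding genes. For those with 200 counts or more the medians were 0.24 in 110 long noncoding RNA genes and 0.18 in 8660 protein-coding genes. More than 2-fold apart were 9 of the 141 genes (6.38%), against 4.26% of all 11341 genes with at least 50 counts in both libraries and 0.969% of the protein-coding genes passing the same thresholds, which had a higher median count (1992, against 527 for the 141). With at least 200 counts it was 4 of 110 long noncoding RNA genes (3.64%), against 0.843% of protein-coding genes. Of the 9 genes 4 were higher and 5 lower in replicate 2, and 5 of the 9 had a mean under 200 counts. On log2(TPM + 1) only 5 genes were more than 2-fold apart.

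**Figure D5:**
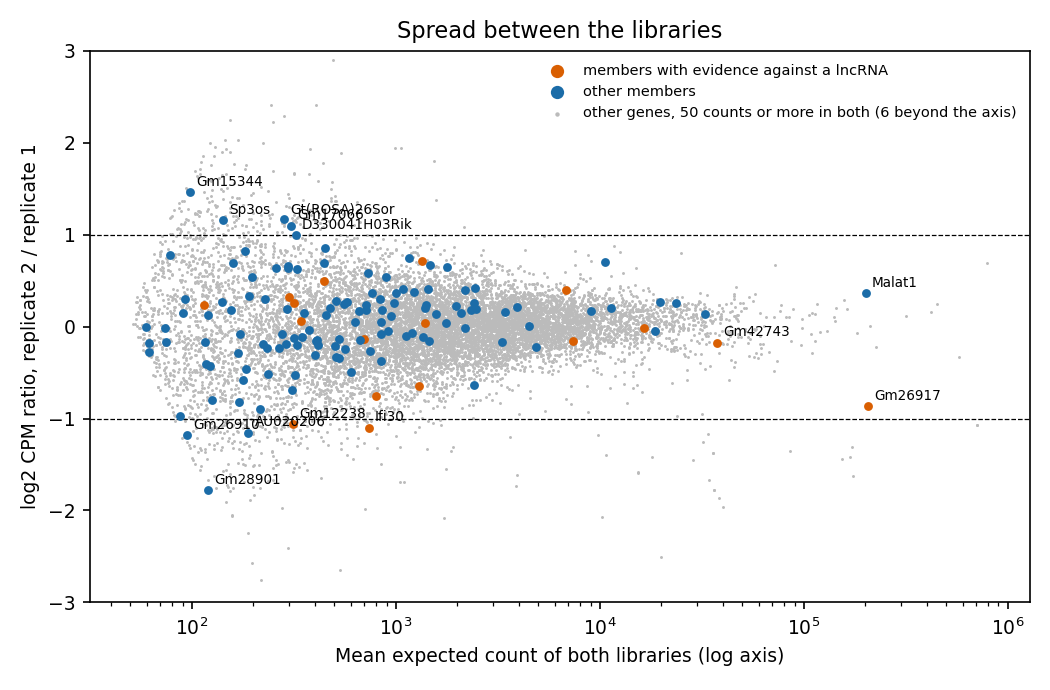
log2 CPM ratio of replicate 2 to replicate 1 against the mean expected count (log axis) for the 17 genes with evidence against a long noncoding RNA (orange), the other 124 genes (blue) and other genes with at least 50 counts in both libraries (grey; 6 lie beyond the axis). Dashed lines mark a ratio of 2-fold. The 9 genes outside them lie mostly at low counts, and Gm26917 stands apart at high counts with a ratio of -0.86.

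Gm15344 shares exon bases with the chaperone gene Hsp90b1 on the same strand. It had 1.54 TPM (replicate 1) and 6.05 TPM (replicate 2), a log2 count ratio of 1.47 from 54 and 141 counts. Gt(ROSA)26Sor followed at 1.17, Sp3os at 1.16, Gm17066 at 1.10, and D330041H03Rik was just short of 2-fold at 0.99. In the other direction Gm28901 had 4.46 TPM (replicate 1) and 1.71 TPM (replicate 2), a ratio of -1.78. It rested on 191 and 50 counts, the latter at the minimum of the rule. Gm26910 was at -1.18 from 135 and 54 counts, AU020206 at -1.15, Ifi30 at -1.10 and Gm12238 at -1.06. Among the abundant genes Malat1 was at 0.36, Gas5 at 0.14, AI662270 at -0.05 and Snhg5 at 0.00. A ratio of 1 library to 1 has no replicate check, and these ratios are given as the spread behind every level above.

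Most of the genes had spliced leading transcripts. The leading transcript had a median of 1113 bases, with quartiles of 575 and 2521 bases, and a median GC content of 47.3%. A single exon made up 32 of the 141 (22.7%), 54 had 2 exons and 17 had 5 or more. Among the 17 genes with evidence against a long noncoding RNA 8 had a single exon, and among the other 124 genes 24 did. Overlap with a protein-coding gene was absent in 66 genes, was on the opposite strand in 58, on the same strand with shared exon bases in 11 and on the same strand without them in 6. The 11 genes with shared exon bases have uncertain levels. They were Gm42743 with Hist2h2bb, Snhg3 with Rcc1, Gm12940 with Sfpq, Chaserr with Chd2, Gm5914 with Agrp, Gm15344 with Hsp90b1, Gm20634 with Hist2h2aa1 and Hist2h3c1, Gm17066 with Rbm26, A730017L22Rik with 4930402H24Rik, 6530402F18Rik with Ntng2 and Gm20707 with Zfp984.

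Of the 94 genes with 2 or more transcripts in the files, 68 had the same leading transcript in both libraries. Of the 82 with 2 or more transcripts above 0, where the leading transcript could differ, 56 had the same. Chaserr did not: a transcript of 519 bases had 50.3% of its TPM in replicate 1 and was listed at 0 in replicate 2, where a transcript of 590 bases led with 39.8%. Gt(ROSA)26Sor was led by its transcript of 822 bases in replicate 1, with 43.7%, and by that of 1181 bases in replicate 2, with 91.5%. Dleu2 kept its transcript of 463 bases, with 32.4% and 56.6%. The transcripts of a gene share exons, and the files assign their reads by an estimate.

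Just inside the rule were 4930520O04Rik with 1.00 and 1.67 TPM, D330041H03Rik with 1.00 and 2.24 TPM, Gm26910 with 1.80 and 1.00 TPM, 1500015A07Rik with 1.02 and 1.49 TPM and 1700007L15Rik with 1.02 and 1.14 TPM. Just outside it by TPM were AC093020.1 with 0.99 and 1.27 TPM, Cep83os with 0.99 and 1.25 TPM, Map2k3os with 1.30 and 0.99 TPM, 1110019D14Rik with 0.98 and 1.18 TPM and Gm16001 with 0.98 and 2.03 TPM. A single library would have passed 165 genes in replicate 1 or 192 genes in replicate 2.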

How the data were processed

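Total RNA of 2 GMP libraries was analysed from gene and transcript tables. The deposited tables give expected counts, TPM, FPKM, posterior means, the bounds of a TPM credibility interval (used as a score) and each transcript's percent of its gene, as the authors made them. The deposited metadata name mm10 and GENCODE M4, and no label or header used here names an aligner or quantifier. Symbols, types and coordinates came from GENCODE M21 of the same assembly, joined on unversioned gene identifiers (42462 of 43346 genes matched). RefSeq types came from GRCm38.p6. Expected counts were rounded for edgeR 4.0.16; ratios are log2 CPM of replicate 2 to replicate 1, checked on simulated data. Levels are medians of log2(TPM + 1). Sequence likeness to coding transcripts used BLAST 2.17.0. The alternatives were other thresholds, pseudocounts, scalings, DESeq2 1.42.0 size factors and each library alone.

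The genes and lists were chosen with earlier results of these data known. Named are the 10 highest genes, the 5 furthest apart in each direction and the 5 nearest the threshold on each side. Also named are genes on the fixed lists, the highest small RNA hosts and the divergent pairs of highest partner TPM. Further named are genes beside myeloid genes, ribosomal RNA copies and genes sharing exons with small RNA or coding genes. The 17 genes with evidence against a long noncoding RNA, Snhg9, 4632427E13Rik and Brip1os, and overlaps other than those of myeloid genes, were named after their values were seen. Small RNA hosts contain the small RNA gene on their own strand. No difference was tested.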

Additional observations from a re-analysis of the deposited data

How the results depend on the processing

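No paired analysis was possible because the series holds 1 group, so no 2 groups share replicate numbers. The number of genes passing was 89 at 2 TPM and 273 on TPM rescaled over nuclear protein-coding genes, against 141, and 165 to 192 with 1 library left out. The level difference to protein-coding genes was -1.01 with a pseudocount of 0.1, -0.96 on FPKM and -0.99 on rescaled TPM, and -0.91 to -0.80 with 1 library left out. The share of the 10 highest was 77.8% by counts and, by an alternative added after seeing the data, 71.5% without the 17 genes with evidence against a long noncoding RNA. The host difference was 1.72 with a pseudocount of 0.1, 1.63 on FPKM, 1.68 on rescaled TPM, 2.17 for snoRNA and scaRNA hosts, and 2.04 without hosts whose exons contain the small RNA. The partner difference turned to -0.27 against protein-coding genes passing the thresholds. Genes more than 2-fold apart numbered 5 on log2(TPM + 1) and 4 of those with a mean of at least 200 counts. The cause of these shifts was not tested. All other settings run gave a value no further from the main value than the SD between the 2 libraries. For counts and median spreads the bound was instead 1.5 times the main value. Depth limits the low genes: 31 of the 141 had a mean under 200 counts, and counting intervals cover counting error only.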
